A study of Homo sapiens with 6 samples.

Results

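Readthrough genes are annotated genes whose transcripts run from the first gene of a neighbouring pair into the next one on the same strand, and which carry the joined name of both, as in HSPE1-MOB4. Members were chosen by name: a gene symbol with exactly 1 hyphen and at least 3 characters on each side of it, not beginning with HLA- or MT-. Of 12180 protein-coding genes listed in the gene table, 62 had such a name. Among them 3, MMP24-AS1 and NCBP2-AS2 included, are named as antisense genes of 1 neighbour. The other 59 carry a joined name and are called readthrough genes here by that name alone. The names and not the expression values made the choice, except that a gene had to be listed at all. The lowest mean of the higher group over the whole table was 0.501 FPKM (fragments per kilobase of transcript, scaled for sequencing depth), and the members nearest to that floor were POC1B-GALNT4 at 0.526, JMJD7-PLA2G4B at 0.540 and MSANTD3-TMEFF1 at 0.543 FPKM.

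A readthrough transcript arises when RNA polymerase does not stop at the end of the upstream gene, and splicing then joins an exon of the upstream gene to one of the downstream gene. Normally the 3′ end machinery cuts the RNA at the polyadenylation signal of the upstream gene, and transcription ends beyond it. Some joined messages encode a fusion of both proteins, while others shift the reading frame and are annotated as targets of nonsense-mediated decay, the pathway that removes messages with a premature stop codon.

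The cells were TE1 (TE-1), a line derived from a human esophageal squamous cell carcinoma (ESCC). FGL1-OE cells carried a lentiviral construct overexpressing FGL1, a secreted fibrinogen-like protein, and NC cells carried random nonsense sequences according to the study, although the sample labels give the control genotype as WT. Both were stable lines obtained with puromycin selection, and 3 libraries of poly(A)-enriched RNA were sequenced per group. The labels do not say whether libraries came from separate cultures, so every p-value measures only the spread between these libraries, which may be technical. Because RNA was taken in bulk, fewer cells making a transcript and less of it per cell cannot be told apart.

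FGL1 itself was at 0.0202, 0 and 0.106 FPKM in NC 1 to NC 3 and at 33.5, 39.3 and 39.9 FPKM in FGL1-OE 1 to FGL1-OE 3, so the targeted gene followed the labels in all 6 libraries. Its log2 fold change was 5.21 (SE 0.15; adjusted p = 1.29e-05 by limma with Benjamini-Hochberg adjustment). Of 11 markers of these cells 9 were listed, with a summed level of 1081 to 2046 FPKM, which the general epithelial genes KRT8, KRT18, KRT19, EPCAM and CDH1 carried. The squamous markers were low: KRT5 was at 4.27 to 6.24, KRT13 at 3.16 to 6.42 and KRT17 at 6.13 to 15.8 FPKM, TP63 stayed under 1 FPKM, and KRT14 and SOX2 were not among the listed genes. Among markers of other cells, 1 of 4 for leukocytes (CD68, 2.25 to 5.73 FPKM), 3 of 4 for fibroblasts (summed 2.29 to 8.27 FPKM) and 0 of 3 for endothelium were listed. Library depth is unknown, since FPKM values showed no steps of whole reads (strength of the strongest period 0.0884 to 0.116, where 1 would mean that all values lie on such steps). NC libraries were less alike than FGL1-OE libraries: over log2(FPKM + 1) of all genes, NC 1 and NC 2 correlated at 0.888, NC 2 and NC 3 at 0.951 and NC 1 and NC 3 at 0.965, against at least 0.982 between any pair of FGL1-OE libraries. With the FGL1-OE libraries, NC 1 correlated at 0.936 to 0.954, NC 2 at 0.956 to 0.972 and NC 3 at 0.978 to 0.982. The readthrough genes made up 0.138% of the listed FPKM in NC 2 and 0.170% to 0.243% in the other 5 libraries.

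What a readthrough transcript does not share with its parents is mainly the junction at which they are joined. Such a junction was found between exons of the parents in GENCODE v29 (GRCh38) for 50 of 59 readthrough genes. The 30 bases across it, 15 on each side, were held by no other annotated gene in each of the 49 cases examined. The lines give the junctions of 7 genes described at length below, the most abundant one among them, as examples. They are read 5′ to 3′ in the direction of transcription, with bases of the upstream gene in lower case and those of the downstream gene in capitals.
HSPE1-MOB4: ggttctaaaggaaagGATTTCTATAATTGG
PRR5-ARHGAP8: ttcgcttctatgaggAGCTGCAGAGAGACA
BLOC1S5-TXNDC5: caggaacgaaaaaagGTGTGGACACTGCCA
SENP3-EIF4A1: ctgcaaactcactgtCCAGGGGAATCCTCC
TMEM189-UBE2V1: tctgcatcaccacagGAGTAAAAGTCCCTC
PTGES3L-AARSD1: atggatgatttggatTTCACCACCACCGTG
NME1-NME2: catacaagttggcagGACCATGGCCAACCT

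The HSPE1-MOB4 junction joined base 197501238 to base 197523624 of chromosome 2 (exon 2 to exon 3 of 9, plus strand), across an intron of 22385 bases. In PRR5-ARHGAP8 it joined base 44726634 to base 44786457 of chromosome 22 (plus strand, intron of 59822 bases). The longest of the 7 introns, 121643 bases, lay in BLOC1S5-TXNDC5 between bases 8026367 and 7904723 of chromosome 6 (minus strand), and the shortest, 804 bases, in SENP3-EIF4A1 between bases 7571479 and 7572284 of chromosome 17 (plus strand). TMEM189-UBE2V1 joined base 50127975 to base 50096820 of chromosome 20 (minus strand). PTGES3L-AARSD1 joined base 42970289 to base 42964237 of chromosome 17 (minus strand), and NME1-NME2 base 51161272 to base 51166827 of the same chromosome (plus strand).

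Beyond the junction little of the sequence was their own. Cut into words of 31 bases, a readthrough transcript held a median of 3.13% words that occur in no other annotated gene, and 40 of 59 held under 5%. The share ran from 0.542% in BIVM-ERCC5 to 48.7% in PPT2-EGFL8. In HSPE1-MOB4, for example, 19.0% of the words were shared with HSPE1 and 77.9% with MOB4, which left 3.14%. Reads from shared exons have to be divided between readthrough gene and parents by the quantification, so the level of every member below is an estimate that depends on that division.

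**Figure D1:**
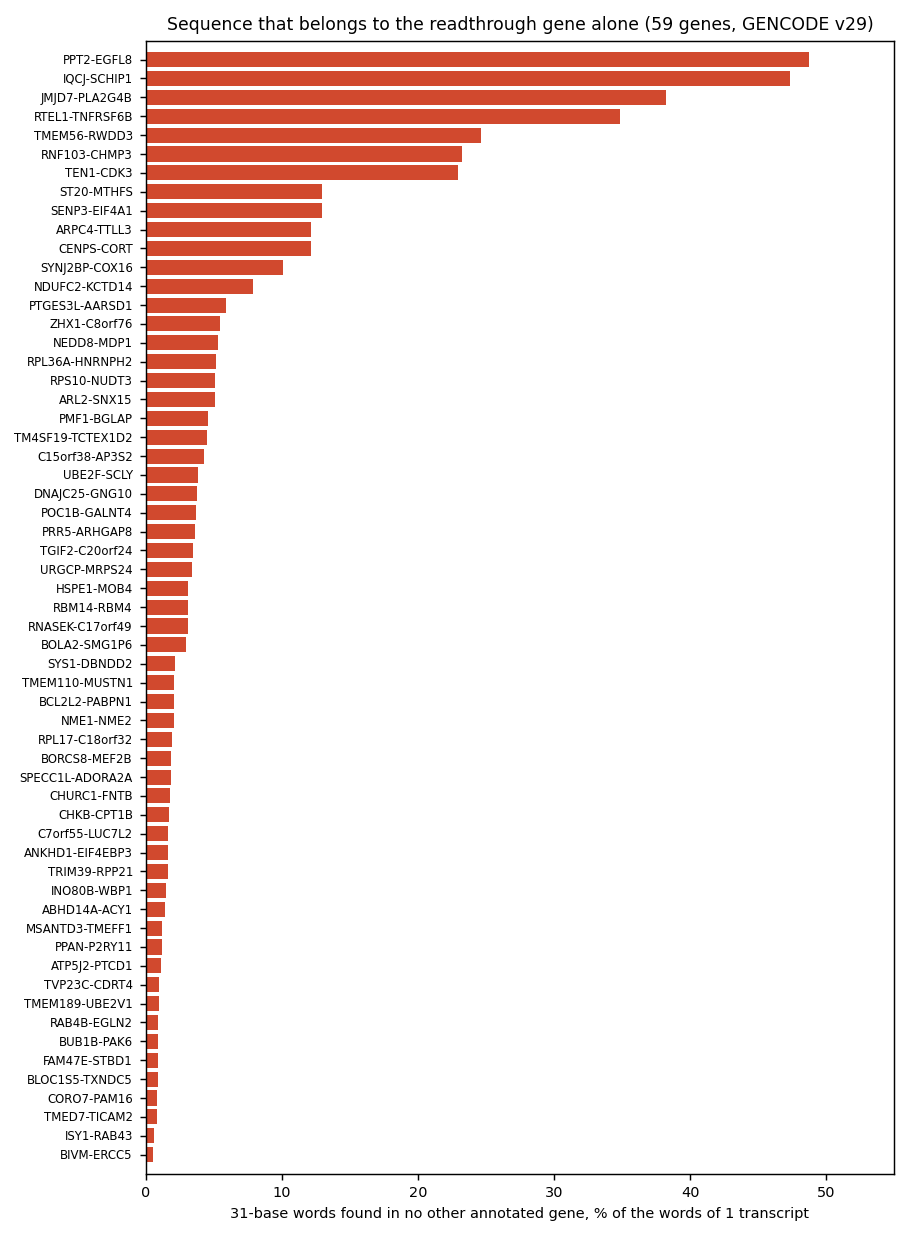
Share of 31-base words of 1 transcript per readthrough gene that occur in no other annotated gene (percent, horizontal bars, 59 genes, GENCODE v29). Most bars are short: 40 genes lie under 5%, and only PPT2-EGFL8 and IQCJ-SCHIP1 exceed 40%. The IQCJ-SCHIP1 transcript compared has 0 exons of IQCJ and shares 0% of its words with that gene.

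The parents lay close together. Both were listed for 48 readthrough genes, 1 for 10 and none for IQCJ-SCHIP1, giving 106 parent genes. On GRCh37, the build of the tables, the parents overlapped at 5 of the 48 loci. At the others the gap had a median of 6613 bases, from 138 between SPECC1L and ADORA2A to 102752 between BLOC1S5 and TXNDC5, and it was under 10000 bases at 27. The deposited transcript table lists protein-coding transcripts, and 15 of the 59 readthrough genes had none there. In GENCODE v29, 12 of these 15 had no protein-coding transcript at all and 14 had one annotated for nonsense-mediated decay.

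Readthrough genes were mostly expressed below their parents. The median of their mean FPKM over the 6 libraries was 2.13, from 0.269 (POC1B-GALNT4) to 229 (NME1-NME2), while the median was 6.34 for the 106 parents and 5.67 for all listed genes. FPKM is scaled for length, but how gene values were formed from transcripts is not given in the sources used here. In NC 1, ARPC4-TTLL3 was at 0.520 FPKM as a gene and at 1.78 FPKM in its only listed transcript. Comparisons with parents depend on that step and on the division of shared reads. At the 48 loci with both parents listed, the readthrough gene was lower than both at 32, between them at 13 and higher than both at 3. Those 3 were BORCS8-MEF2B, CHURC1-FNTB and NME1-NME2.

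**Figure D2:**
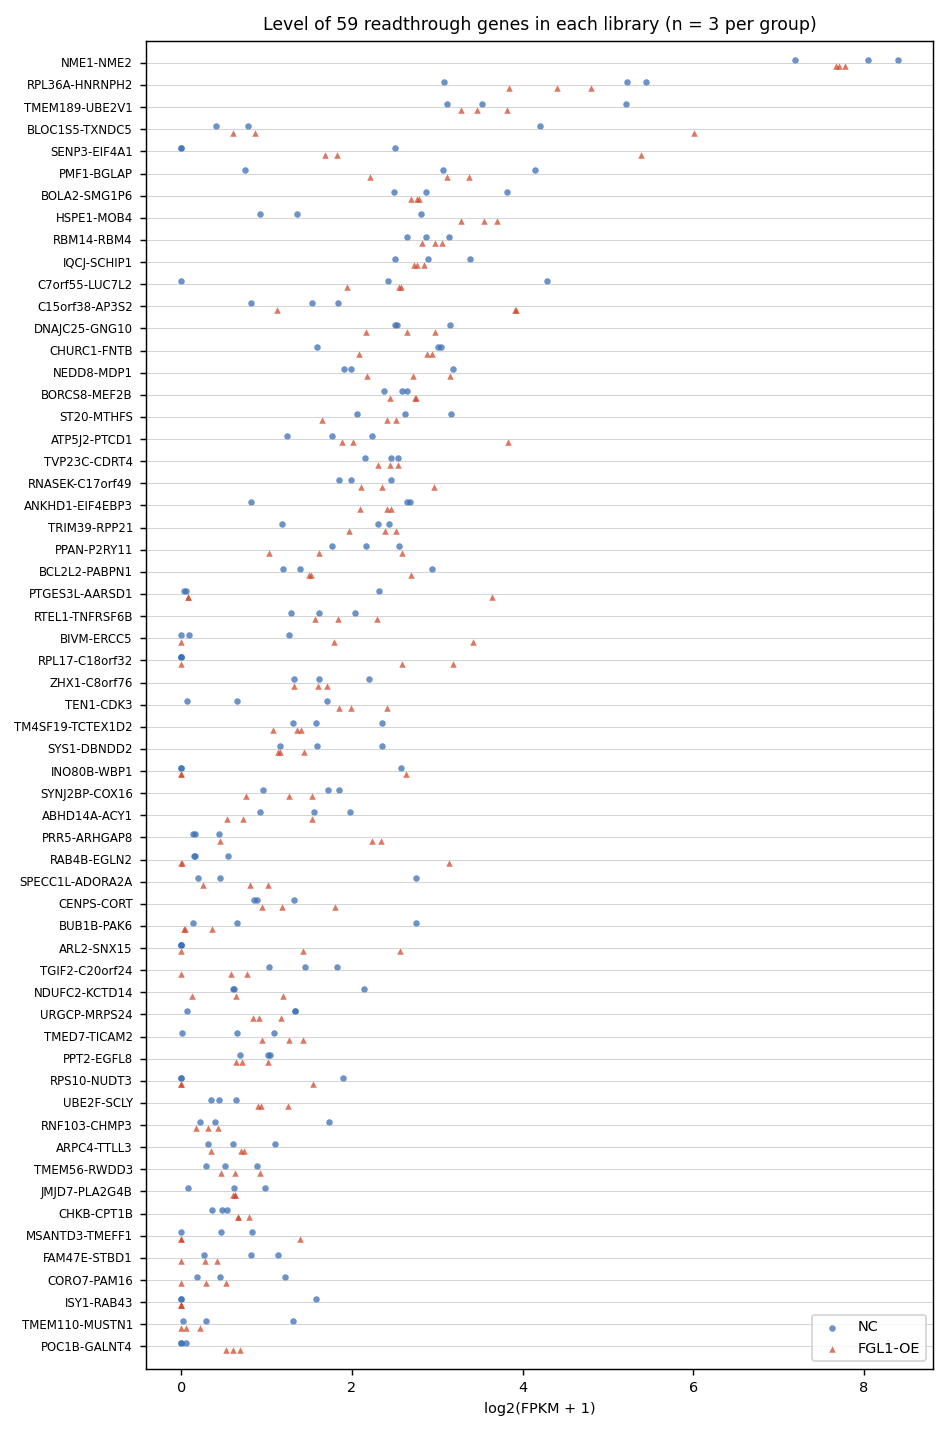
Level of each of the 59 readthrough genes in each library, without the antisense names, as log2(FPKM + 1), ordered by mean level (circles, NC; triangles, FGL1-OE; n = 3 per group). NME1-NME2 lies far above the rest, and in several genes, such as BLOC1S5-TXNDC5 and SENP3-EIF4A1, 1 or 2 libraries lie far from the rest.

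NME1-NME2, which joins the genes of a pair of nucleoside diphosphate kinases (chromosome 17, 49230951 to 49249105), was the most abundant member. It stood at 336, 145 and 263 FPKM in NC 1 to NC 3 and at 208, 218 and 203 FPKM in FGL1-OE 1 to FGL1-OE 3. All 3 FGL1-OE values fell inside the range of the NC libraries. NME1 was at 57.4 to 94.9 FPKM and NME2 at 76.5 to 109 FPKM, so the joined gene exceeded both parents in every library. The log2 fold change was -0.16 (SE 0.29).

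The next most abundant members were RPL36A-HNRNPH2, NCBP2-AS2, TMEM189-UBE2V1 and BLOC1S5-TXNDC5. RPL36A-HNRNPH2, from a ribosomal protein gene and an RNA-binding protein gene of chromosome X, varied from 7.48 FPKM in NC 2 to 42.7 FPKM in NC 1, with 13.3, 26.9 and 20.2 FPKM in the FGL1-OE libraries. NCBP2-AS2, named as the antisense partner of the cap-binding protein gene NCBP2, was the steadiest of them, at 21.6, 18.1 and 22.9 FPKM in NC and 23.8, 22.8 and 22.2 FPKM in FGL1-OE. The groups overlapped in both genes. The library kit kept strand, but whether strand was used in counting is not given in the sources used here. The listed spans of NCBP2 (chromosome 3, 196662273 to 196669468) and NCBP2-AS2 (196669494 to 196670411) do not overlap.

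A readthrough gene was usually a minor part of its locus. Its share in the summed FPKM of readthrough gene and parents, averaged over libraries, had a median of 8.16% in NC and 13.1% in FGL1-OE over the 48 loci. From sums of the transcript table, which covered 34 of these loci, it was 4.07% and 9.12%, against 8.01% and 12.6% from the gene table at the same 34. The difference between the groups was not tested. Single libraries set the mean share at loci of either group, as for RAB4B-EGLN2 (57.3% in FGL1-OE 3) and SPECC1L-ADORA2A (36.1% in NC 2). The 48 loci also include ARL2-SNX15 and RPL17-C18orf32, at 0 in all NC libraries. The share was under 5% at 10 loci and over 50% at BORCS8-MEF2B and NME1-NME2, and ran from 0.113% for RPS10-NUDT3 to 64.7% for BORCS8-MEF2B. BORCS8-MEF2B, which joins a gene of a lysosome-positioning complex to a MEF2 transcription factor gene, was at 4.17 to 5.74 FPKM in the 6 libraries. MEF2B alone was at 0.119 to 1.48 FPKM.

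In the median, replicates spread more widely for readthrough genes than for other genes of the same level. The median SD of log2(FPKM + 1) within groups was 0.530 for the 59 readthrough genes, 0.307 for the parents and 0.249 for all listed genes. Between the lower and upper quartile of the readthrough levels, 0.974 to 5.08 FPKM, it was 0.621 for 29 readthrough genes and 0.247 for 4487 other genes, and 27 of the 29 lay above the latter value. Within FGL1-OE alone the medians were 0.356 for readthrough genes, 0.153 for parents and 0.120 for all listed genes.

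**Figure D3:**
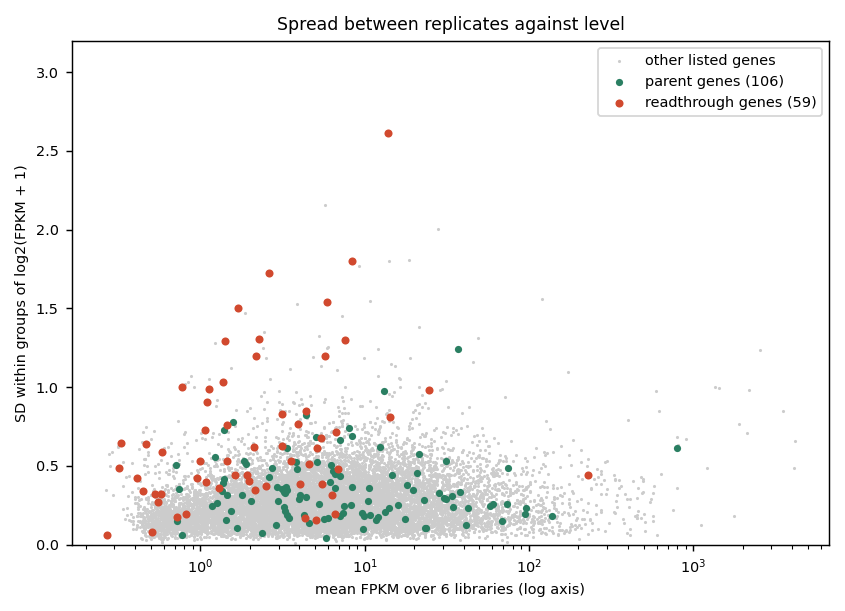
SD of log2(FPKM + 1) within groups (vertical axis) against mean FPKM over 6 libraries (horizontal, log axis) for 59 readthrough genes (red), 106 parent genes (green) and the other listed genes (grey). At 1 to 5 FPKM most red points lie above the grey cloud's centre, at a median of 0.621 against 0.247, and BLOC1S5-TXNDC5 has the highest value of the red points, 2.62.

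Exact zeros were also frequent. In at least 1 library, 14 of 59 readthrough genes (23.7%) were listed at 0, against 92 of 12180 listed genes (0.755%) and 1 of the 106 parents. Of the 56 members that passed the filter of a mean of at least 0.5 FPKM, 9 were at 0 somewhere, against 0.458% of all 12017 genes tested, and 4 were at 0 in at least 3 libraries, against 0.117%. Whether a listed 0 is a failed estimate or a missing transcript was not tested, and no fold change is given against a group that is wholly at 0.

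The 6 members at 0 in at least 3 libraries were not present in any common library. ARL2-SNX15, joining a small GTPase gene to a sorting nexin gene, was listed at 0 in all NC libraries and in FGL1-OE 2, with 4.91 FPKM in FGL1-OE 1 and 1.69 FPKM in FGL1-OE 3. RPL17-C18orf32, whose upstream parent encodes a ribosomal protein, was also at 0 in all NC libraries, with 4.99, 8.08 and 0 FPKM in FGL1-OE 1 to FGL1-OE 3. INO80B-WBP1, from a chromatin remodelling subunit gene, appeared at 4.95 FPKM in NC 3 and 5.19 FPKM in FGL1-OE 1. The groups overlapped in all of these, since at least 1 FGL1-OE library was at 0 as well.

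RPS10-NUDT3, from a ribosomal protein gene and a diphosphoinositol phosphatase gene, appeared at 2.71 FPKM in NC 3 and 1.92 FPKM in FGL1-OE 2 and was at 0 elsewhere. ISY1-RAB43, from a splicing factor gene and a Rab GTPase gene, was present in NC 1 alone, at 1.99 FPKM. MSANTD3-TMEFF1 was at 0.778 FPKM in NC 2, 0.385 FPKM in NC 3 and 1.63 FPKM in FGL1-OE 2. The upstream parents of these 3, RPS10, ISY1 and MSANTD3, were above 2 FPKM in every library.

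The comparison of FGL1-OE with NC asks whether overexpression of FGL1 shifted readthrough genes. No member passed an adjusted p of 0.05 (0 of 56 tested by limma with Benjamini-Hochberg adjustment over 12017 genes, where 0.00832% passed, FGL1 alone). An ordinary linear model gave 0 members as well. At an unadjusted p under 0.05 there were 7 members, against 2.01% of all genes, of which 6 were higher in FGL1-OE, against 1.21%, and 1 was lower, against 0.807%. Of the 6, ARL2-SNX15, PRR5-ARHGAP8, RPL17-C18orf32 and UBE2F-SCLY had an NC mean under 0.5 FPKM and so passed the filter only through FGL1-OE, the group in which they were high, and the count is a description without support for a shift. In 6 of 56 members the groups did not overlap, against 7.15% of all genes. Among them, CHKB-CPT1B, PRR5-ARHGAP8 and UBE2F-SCLY passed the filter only through FGL1-OE, where they were high. TGIF2-C20orf24, the lower member, passed it only through NC, where it was high. The non-overlap count is therefore a description as well. The median log2 fold change was 0.08 over the 56 members and 0.02 over all genes tested, with a range from -1.03 (BUB1B-PAK6) to 2.13 (SENP3-EIF4A1).

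Without NC 1 the groups did not overlap in 9 of 56 members, against 14.1% of all genes. Without NC 2 they did not overlap in 23, against 42.8%, and 9 members had an unadjusted p under 0.05 and were lower, against 10.6%. Leaving out FGL1-OE 3, the FGL1-OE library in which it was at 0, brought RPL17-C18orf32 to an adjusted p of 0.0345 (limma). That value compares 0 in all 3 NC libraries with 4.99 and 8.08 FPKM in a member that passed the filter only through FGL1-OE, and it supports no difference. Its adjusted p was 1.00 with all 6 libraries, 0.232 without NC 2 and 1.00 in each of the other alternatives. Without FGL1-OE 3, 2 of all genes passed.

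**Figure D4:**
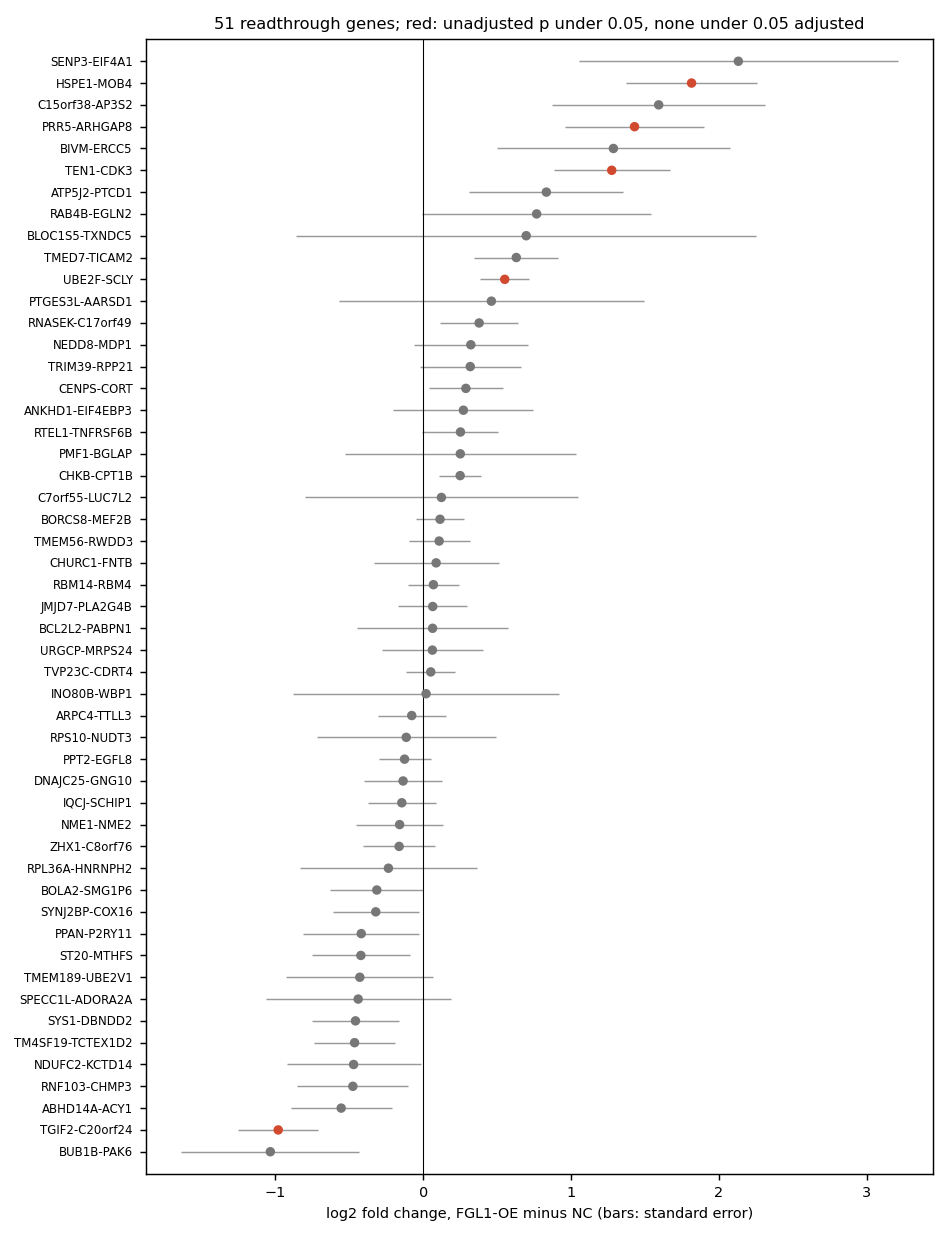
Log2 fold change (FGL1-OE minus NC, on log2(FPKM + 1)) of 51 readthrough genes tested, with its standard error as bars; the antisense names are left out, as are ARL2-SNX15 and RPL17-C18orf32, at 0 in all NC libraries. Red points are the 5 with an unadjusted p under 0.05; none had an adjusted p under 0.05, and most points lie within 1 unit of 0.

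HSPE1-MOB4, TEN1-CDK3 and PRR5-ARHGAP8 were singled out with these values already known, so their differences are given as a description. HSPE1-MOB4 (chromosome 2, 198365137 to 198415450) joins the gene of the mitochondrial co-chaperonin of HSP60 to that of MOB4, a subunit of a phosphatase complex. It was at 0.902, 1.56 and 6.01 FPKM in NC 1 to NC 3 and at 10.7, 8.73 and 12.0 FPKM in FGL1-OE 1 to FGL1-OE 3. All FGL1-OE libraries lay above all NC libraries, and the NC libraries themselves differed more than 6-fold. The log2 fold change was 1.81 (SE 0.44). HSPE1 was at 28.9 to 45.6 FPKM with overlapping groups (log2 fold change -0.03), and MOB4 was at 12.6 FPKM in NC 2 and at 2.42 to 3.32 FPKM in the other 5 libraries. The share of HSPE1-MOB4 in its locus was 2.79%, 2.62% and 14.9% in NC and 22.9%, 19.3% and 23.9% in FGL1-OE.

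At TEN1-CDK3 the joined gene and its upstream parent differed between the groups in opposite directions. TEN1 encodes a subunit of the telomere-capping CST complex, CDK3 a cyclin-dependent kinase, and the joined gene spans 73975312 to 74002080 of chromosome 17. TEN1-CDK3 was at 0.572, 0.0471 and 2.26 FPKM in NC, against 4.30, 2.60 and 2.98 FPKM in FGL1-OE (log2 fold change 1.27, SE 0.39), without overlap. TEN1 was at 8.61, 7.13 and 2.19 FPKM in NC, against 0.612, 0.719 and 0.896 FPKM in FGL1-OE, also without overlap (log2 fold change -1.86, SE 0.39; adjusted p = 1.00 by limma). NC 3 lay nearest to the FGL1-OE libraries in both genes, and CDK3 overlapped between the groups, at 0.484 to 1.95 FPKM. The only TEN1-CDK3 transcript listed, which GENCODE v29 annotates as a retained intron, reached 1.97 FPKM in FGL1-OE 1 and 1.10 FPKM in FGL1-OE 3, and was under 0.01 FPKM in the other 4 libraries.

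PRR5-ARHGAP8 (chromosome 22, 45098113 to 45258586) joins the gene of a component of mTOR complex 2 to that of a GTPase-activating protein. It was at 0.103, 0.117 and 0.359 FPKM in NC, against 4.06, 3.72 and 0.369 FPKM in FGL1-OE (log2 fold change 1.43, SE 0.47). FGL1-OE 3 lay just above the highest NC library, so the separation rested on FGL1-OE 1 and FGL1-OE 2. ARHGAP8 was lowest in the same 2 libraries, at 2.08 and 1.53 FPKM, against 3.69 to 4.44 FPKM in the other 4. PRR5 overlapped between the groups, at 2.20 to 4.15 FPKM.

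The remaining members with an unadjusted p under 0.05 and values in both groups were UBE2F-SCLY and TGIF2-C20orf24. UBE2F-SCLY, from the gene of a NEDD8-conjugating enzyme and that of selenocysteine lyase, was at 0.563, 0.355 and 0.274 FPKM in NC, against 1.38, 0.861 and 0.914 FPKM in FGL1-OE. Its NC mean was 0.397 FPKM, so it passed the filter only through FGL1-OE, and its p-value supports no difference. All FGL1-OE libraries lay above NC (log2 fold change 0.55, SE 0.17; unadjusted p = 0.0118, adjusted p = 1.00 by limma), while UBE2F (0.07) and SCLY (-0.02) had log2 fold changes near 0. TGIF2-C20orf24, whose upstream parent encodes a transcriptional repressor of the TGF-beta pathway, was the 1 member on the lower side. It was at 1.03, 1.72 and 2.53 FPKM in NC, against 0.705, 0.493 and 0 FPKM in FGL1-OE, without overlap (log2 fold change -0.98, SE 0.27; unadjusted p = 0.00742, adjusted p = 1.00 by limma). The FGL1-OE mean of TGIF2-C20orf24 was 0.399 FPKM. It thus passed the filter only through NC, where it was high, and its p-value supports no difference either. C20orf24 lay at 65.4 to 95.9 FPKM in NC and 98.5 to 116 FPKM in FGL1-OE (log2 fold change 0.34, SE 0.19).

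Low members without overlap were CHKB-CPT1B and, below the filter, POC1B-GALNT4, both named after their values were seen. CHKB-CPT1B, from the genes of a choline kinase and a carnitine palmitoyltransferase, was at 0.396, 0.282 and 0.448 FPKM in NC, against 0.587, 0.585 and 0.730 FPKM in FGL1-OE. POC1B-GALNT4, from a centriole gene and a glycosyltransferase gene, was at 0.0361, 0 and 0 FPKM in NC, against 0.611, 0.442 and 0.524 FPKM in FGL1-OE. In both, all FGL1-OE libraries exceeded all NC libraries. The NC mean of CHKB-CPT1B was 0.375 FPKM, so it passed the filter only through FGL1-OE. POC1B-GALNT4 had an NC mean of 0.0120 FPKM and an FGL1-OE mean of 0.526 FPKM. With the listing floor at 0.501 FPKM, it was listed only through FGL1-OE. The lack of overlap therefore supports no difference in either gene.

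The largest positive difference among the members tested belonged to SENP3-EIF4A1 and rested on 1 library. The gene joins that of a SUMO protease to that of an RNA helicase of translation initiation, and stood at 0, 4.67 and 0 FPKM in NC, against 2.54, 2.22 and 40.9 FPKM in FGL1-OE. FGL1-OE 3 was far above the rest, and the groups overlapped (log2 fold change 2.13, SE 1.08; it was 0.92 without FGL1-OE 3). Both parents were at their lowest in FGL1-OE 3. SENP3 was at 10.5 FPKM there (up to 30.9 FPKM elsewhere) and EIF4A1 at 19.2 FPKM (up to 41.9 FPKM elsewhere). EIF4A1 was almost as low in NC 1, at 19.4 FPKM, where the readthrough gene was at 0. The readthrough gene took 57.9% of its locus in FGL1-OE 3 and at most 8.32% in any other library.

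Among the members tested, the largest negative differences were BUB1B-PAK6, TGIF2-C20orf24, ABHD14A-ACY1, RNF103-CHMP3 and NDUFC2-KCTD14. BUB1B-PAK6, from the genes of a spindle checkpoint kinase and a p21-activated kinase, was at 5.73, 0.0955 and 0.569 FPKM in NC, against 0.0250, 0.279 and 0.0284 FPKM in FGL1-OE. NC 1 alone was high (log2 fold change -1.03, SE 0.60; it was -0.25 without NC 1), and BUB1B and PAK6 had log2 fold changes of 0.07 and 0.06. NDUFC2-KCTD14, from a gene of mitochondrial complex I, was likewise high in NC 1 alone (3.41 FPKM, against 0.0874 to 1.28 FPKM elsewhere). RNF103-CHMP3, from the genes of a ubiquitin ligase and an ESCRT-III subunit, was high in NC 3 alone (2.31 FPKM, against 0.126 to 0.344 FPKM). ABHD14A-ACY1, whose downstream parent encodes an aminoacylase, was at 2.94, 0.890 and 1.94 FPKM in NC, against 0.646, 0.454 and 1.88 FPKM in FGL1-OE, with overlap.

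Readthrough and parent values were next set side by side within libraries. The library with the highest readthrough value was the one with the lowest parent value in 36 of 106 pairs of readthrough gene and parent, and the one with the highest parent value in 15. For downstream parents the counts were 21 and 7 of 50, and for upstream parents 15 and 8 of 56. No such counts are given for other gene pairs, so these have no background beside them. The readthrough level and the parent level are not independent measurements, because shared reads are divided between them. How much of these counts comes from that division was not tested.

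BLOC1S5-TXNDC5 gave the widest swing. It joins a gene of the BLOC-1 organelle biogenesis complex to that of TXNDC5, a protein disulfide isomerase of the endoplasmic reticulum (chromosome 6, 7881755 to 8064597). It was at 0.321, 17.4 and 0.716 FPKM in NC, against 0.816, 0.520 and 63.4 FPKM in FGL1-OE. TXNDC5 was at 42.9, 28.7 and 45.4 FPKM in NC, against 50.8, 48.2 and 5.40 FPKM in FGL1-OE. TXNDC5 was thus lowest in NC 2 and FGL1-OE 3, the 2 libraries in which the readthrough gene was high, and BLOC1S5 stayed at 2.56 to 3.58 FPKM. Within the locus the share of BLOC1S5-TXNDC5 was 88.7% in FGL1-OE 3, 35.1% in NC 2 and at most 1.51% in the other 4. Replicates of the same group differed far more than the groups (log2 fold change 0.70, SE 1.56).

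C15orf38-AP3S2 (chromosome 15, 90377540 to 90456114) showed the same pattern in 2 libraries. Its upstream parent, now named ARPIN, encodes an inhibitor of the Arp2/3 complex, and AP3S2 encodes a subunit of the AP-3 adaptor of vesicle transport. The readthrough gene was at 1.88, 0.765 and 2.56 FPKM in NC, against 1.18, 14.0 and 14.1 FPKM in FGL1-OE, while AP3S2 was at 7.39, 7.50 and 7.48 FPKM and at 7.71, 3.43 and 3.40 FPKM. FGL1-OE 2 and FGL1-OE 3 were therefore high in one and low in the other, and FGL1-OE 1 resembled NC in both. Of the 2 listed transcripts of C15orf38-AP3S2, ENST00000398333 was at 14.0 and 14.2 FPKM in those 2 libraries and at no more than 0.795 FPKM in the other 4. The second, ENST00000558648, was at 3.08 to 10.3 FPKM with no such split. ARPIN was at 6.78 to 6.90 FPKM in NC and 4.60 to 5.02 FPKM in FGL1-OE (log2 fold change -0.42, SE 0.13; unadjusted p = 0.0147, adjusted p = 1.00 by limma).

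TMEM189-UBE2V1, from the gene of a plasmalogen-forming desaturase and that of a ubiquitin-conjugating enzyme variant, stood out in NC 2. It was at 10.5, 36.0 and 7.67 FPKM in NC, against 8.71 to 13.1 FPKM in FGL1-OE. TMEM189 was lowest in NC 2, at 1.80 FPKM against 3.10 to 9.19 FPKM in the other libraries. UBE2V1 was at 37.8 FPKM in NC 2, within its range of 22.0 to 40.0 FPKM. The log2 fold change of the readthrough gene was -0.43 (SE 0.50) and turned to 0.20 without NC 2.

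A pair of further loci, named after their values were seen, showed the same exchange in FGL1-OE 2. BIVM-ERCC5, whose downstream parent encodes the XPG nuclease of nucleotide excision repair, was at 1.40, 0 and 0.0626 FPKM in NC, against 0, 9.70 and 2.45 FPKM in FGL1-OE. The ERCC5 transcript ENST00000355739 was at 0.0515 FPKM in FGL1-OE 2 and at 5.68 to 8.90 FPKM in the other libraries. PTGES3L-AARSD1, whose downstream parent encodes an alanyl-tRNA editing protein, was at 0.0417, 0.0222 and 4.0 FPKM in NC, against 0.0555, 11.5 and 0.0527 FPKM in FGL1-OE. The AARSD1 transcript ENST00000427569 was at 0.360 FPKM in FGL1-OE 2 and at 13.2 to 25.2 FPKM elsewhere. The groups overlapped in both readthrough genes. For BIVM-ERCC5, FGL1-OE 2 and FGL1-OE 3 lay above all NC libraries, and FGL1-OE 1 was at 0. ERCC5 as a gene was at 7.78, 9.12 and 8.81 FPKM in NC. It was at 7.63, 1.79 and 7.46 FPKM in FGL1-OE, without overlap. PTGES3L-AARSD1 was also raised in NC 3, where AARSD1 as a gene was at 8.61 FPKM, against 2.18 FPKM in FGL1-OE 2.

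**Figure D5:**
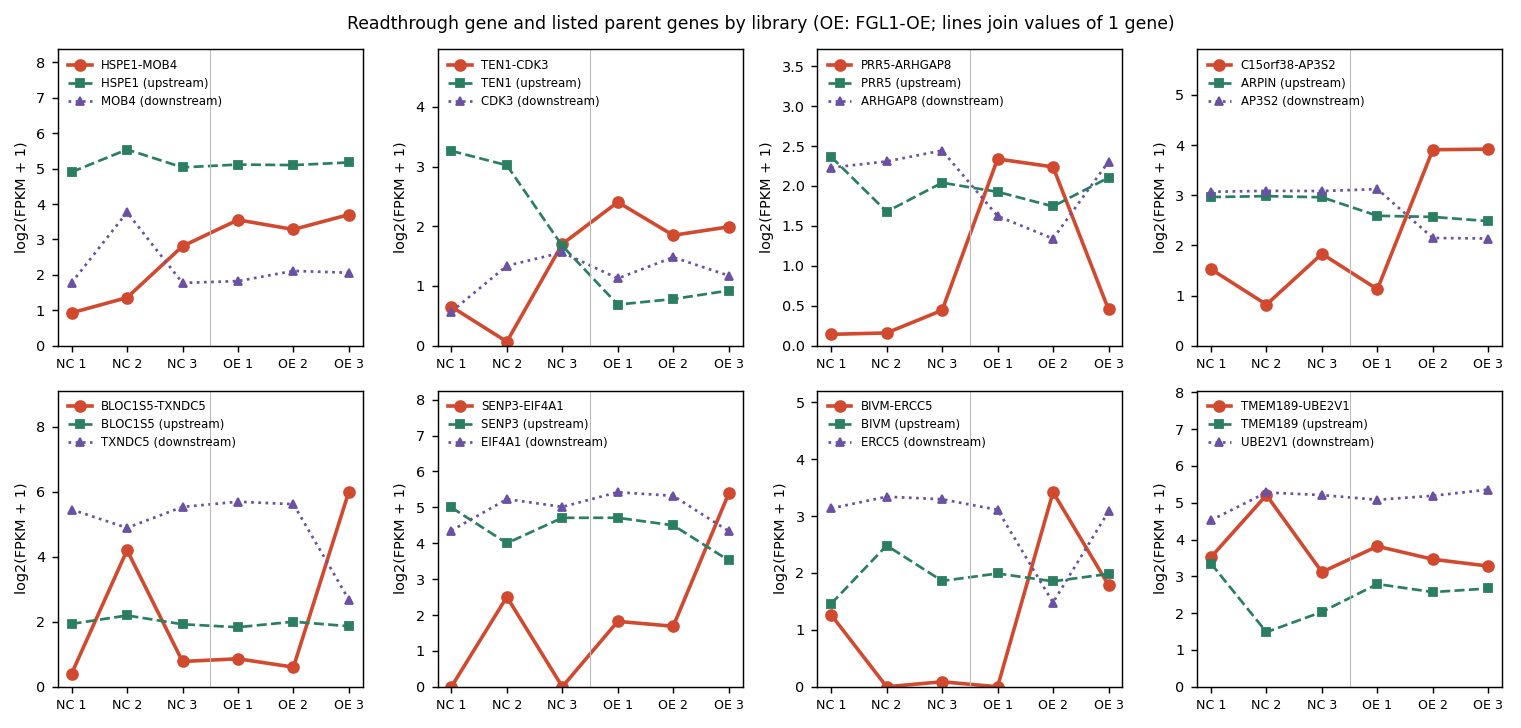
Readthrough gene (red circles), upstream parent (green squares) and downstream parent (purple triangles) in each library at 8 loci, as log2(FPKM + 1). Lines join the values of 1 gene as a guide and mark no order of replicates. The red point is highest where a parent is lowest in FGL1-OE 3 for BLOC1S5-TXNDC5 and SENP3-EIF4A1, in FGL1-OE 2 for BIVM-ERCC5, and in NC 2 for TMEM189-UBE2V1.

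Among the parents, 56 upstream and 50 downstream genes were tested, and 0 passed an adjusted p of 0.05. At an unadjusted p under 0.05 there were 3 upstream parents (TEN1 and ARPIN lower, RNASEK higher) and 0 downstream parents, against 2.01% of all genes. RNASEK, a ribonuclease gene and the upstream parent of RNASEK-C17orf49, was at 4.94, 4.80 and 4.91 FPKM in NC, against 12.5, 8.50 and 8.66 FPKM in FGL1-OE, without overlap (log2 fold change 0.87, SE 0.18; adjusted p = 1.00 by limma). RNASEK-C17orf49 itself was at 2.59 to 4.50 FPKM in NC and 3.30 to 6.81 FPKM in FGL1-OE, with overlap. The median log2 fold change was 0.05 for upstream parents and -0.0017 for downstream parents.

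Among the listed transcripts, 74 carried a readthrough-type name, and they came from 49 genes, among them MINOS1-NBL1, which was not in the gene table. Of 62 transcripts tested, 0 passed an adjusted p of 0.05 by limma, against 0.0165% of all 30330. At an unadjusted p under 0.05 there were 4, against 3.53%, of which 2 were higher in FGL1-OE, against 2.05%, and 2 lower, against 1.48%. In 5 the groups did not overlap, against 8.22%. The higher ones belonged to HSPE1-MOB4 and PRR5-ARHGAP8 and the lower ones to TGIF2-C20orf24 and BOLA2-SMG1P6. The PRR5-ARHGAP8 transcript passed the filter only through FGL1-OE and the TGIF2-C20orf24 transcript only through NC, each the group in which it was high. The BOLA2-SMG1P6 transcript ENST00000569622 was at 6.69, 5.78 and 4.84 FPKM in NC, against 2.52, 4.10 and 2.66 FPKM in FGL1-OE, without overlap.

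The genes of the machinery that limits readthrough were set beside the members. All 22 genes of 3′ end formation on the list, which hold the cleavage and polyadenylation factors, poly(A) polymerases and the termination exonuclease XRN2, were tested, and 0 had an unadjusted p under 0.05, against 2.01% of all genes, so that few calls would be seen in a list of this size at the background share. Their log2 fold changes ran from -0.25 (SYMPK) to 0.58 (CLP1), with a median of 0.09. CLP1, a cleavage factor subunit, was at 2.99, 6.20 and 3.0 FPKM in NC, against 5.56, 6.30 and 7.05 FPKM in FGL1-OE, with overlap. For the 10 nonsense-mediated decay genes, UPF1 to UPF3B and the SMG factors, the range was -0.32 to 0.09, the median -0.05, and 0 had an unadjusted p under 0.05.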

How the data were processed

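Poly(A)-enriched RNA of TE1 cells was sequenced from 3 NC and 3 FGL1-OE libraries. The authors deposited FPKM values of every library, covering 12180 genes and 33090 transcripts. No scaling between libraries was applied here. The submitters' processing notes name StringTie and GRCh37, and the aligner, its version and the annotation release are not given in the sources used here. The columns in which the authors compared the groups (fold changes, p-values and q-values) were not used, and columns without a known sample numbered 0. Groups follow the genotype that each sample's labels give.

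Low features were removed by requiring 0.5 FPKM on average, which left 12017 genes and 30330 transcripts. A linear model of group on log2(FPKM + 1) was fitted in limma 3.58.1 under R 4.3.3, without covariates, and its variances were moderated with eBayes. Adjustment was by Benjamini-Hochberg over each whole table, at a threshold of 0.05. A fold change is a difference on the log2(FPKM + 1) scale and understates changes of low genes. The 6 members under 0.5 FPKM were not tested.

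Readthrough genes were matched to GENCODE v29 by gene identifier, and transcript sequences, words of 31 bases and junctions were taken from it (Python 3.11.15). Parents were matched by symbol, with C15orf38 and C7orf55 under their newer names ARPIN and FMC1. The genes named were HSPE1-MOB4, TEN1-CDK3 and PRR5-ARHGAP8, the 5 members with the highest mean, the 5 largest positive and 5 largest negative fold changes, those with an unadjusted p under 0.05, those at 0 in at least 3 libraries, and their parents. Members and lists were chosen with earlier results of these data known. Alternatives were quantile normalization, scaling to TPM, 0.1 as pseudocount, a filter at 1 FPKM or none, an ordinary linear model, a replicate block, and leaving out each library. Shares were also computed from sums of the transcript table and over loci with at least 1 parent, and the antisense names were left out as an alternative added after seeing the data.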

Additional observations from a re-analysis of the deposited data

How the results depend on the processing

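FPKM without counts or depth limits what low members can show, and shared exons tie each member to its parents. No member passed an adjusted p of 0.05 under any alternative except that leaving out 1 library at a time gave 0 to 1 (RPL17-C18orf32 without FGL1-OE 3). Members with an unadjusted p under 0.05 and higher numbered 6 (1.21% of all genes). There were 8 with a pseudocount of 0.1 (1.18%), 8 with scaling to TPM (1.12%) and 7 without a filter (1.25%). The filter at 1 FPKM gave 5 (1.22%), quantile normalization 6 (1.17%) and an ordinary linear model 3 (1.72%). Without 1 library the higher ones numbered 4 to 6, with 6 without NC 2 (11.2%). Lower ones numbered 1 (0.807%), against 1 to 9 without 1 library, with 9 without NC 2 (10.6%). Members whose groups did not overlap numbered 6, against 9 to 23 without 1 library. Without NC 1 the count was 9 (14.1% of all genes), without NC 2 23 (42.8%), without NC 3 10 (13%) and without FGL1-OE 1 12 (12.5%). For transcripts the counts without 1 library were 1 to 4 higher and 1 to 5 lower, and the share over all transcripts was not computed there. The median share of a readthrough gene in FGL1-OE was 13.1%, against 9.12% from sums of the transcript table and 10.6% to 14.5% without 1 library. In NC it was 8.16%, against 4.07% and 7.38% to 8.54%. The median log2 fold change of members ran from 0.06 to 0.20 without 1 library and that of FGL1 from 5.16 to 5.29. The cause of these shifts was not tested.

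The deviations of same-numbered libraries from their group means correlated at 0.345, 0.282 and -0.061. Between libraries of different number they correlated at -0.370 to 0.136. Whether the replicate numbers pair the libraries was not tested. A replicate block gave 0 members with an adjusted p under 0.05, 7 higher (1.41% of all genes) and 1 lower (1.07%) at an unadjusted p under 0.05, and 3 higher and 0 lower transcripts, against 2 and 2 without it.

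Of 464 alternative values for 36 named genes, 438 kept their direction and side of the threshold and 25 changed sign. INO80B-WBP1 had -0.0023 with a common sum. Without 1 library, log2 fold changes ran from -1.06 to 1.90 (BLOC1S5-TXNDC5), -0.86 to 0.88 (INO80B-WBP1), -0.74 to 0.039 (NDUFC2-KCTD14), -0.50 to 0.10 (NME1-NME2), -0.99 to 0.20 (RPL36A-HNRNPH2), -0.63 to 0.52 (RPS10-NUDT3) and -0.85 to 0.20 (TMEM189-UBE2V1). Among parents they ran from -0.19 to 0.31 (CDK3), -0.16 to 0.16 (HSPE1), -0.77 to 0.22 (MOB4), -0.28 to 0.066 (PRR5), -0.10 to 0.10 (SCLY), -0.11 to 0.35 (TGIF2), -1.15 to 0.36 (TXNDC5) and -0.14 to 0.25 (UBE2F).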
